A study of Mus musculus with 4 samples.

Results

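The genes described here are 4 tissue inhibitors of metalloproteinases (Timp1, Timp2, Timp3 and Timp4) and 6 matrix metalloproteinases (Mmp2, Mmp12, Mmp14, Mmp15, Mmp17 and Mmp19), measured as RNA in the lumbar spinal cord of mice. They were taken by gene name from a table of 18674 gene names in 23750 rows, where the 10 genes hold 12 rows, and a name with several rows is given as the mean of its rows. All 10 were found, and all 10 had a mean over the libraries of at least 1 RPKM (reads per kilobase of transcript and corrected for library size). There were 4 libraries, 1 per condition. Both WT and G93A mice were sampled after vehicle (WT vehicle, G93A vehicle) and after spermidine, a polyamine (WT + SD, G93A + SD). G93A mice carry a human SOD1 transgene with the G93A mutation that causes familial ALS, of the high-expresser strain on a B6/SJLF1 background, and WT mice lack it. Per the methods, spinal cords were taken at an age of 100 days, when SD or PBS had been given for 30 days, and the labels put the frequency at 4 times a week. The dose of these mice is not given apart. The dosing section, written for longer regimens, gives 5 mg/kg of SD by the intraperitoneal route with saline as vehicle. It covers the treatment studies, which used male mice. The number of animals behind a library is not given in the sources used here. With 1 library per condition no difference has a replicate check, no test was made, and no p-value is given.

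Matrix metalloproteinases are zinc-dependent proteases that cut proteins of the extracellular matrix, cell surface proteins and signalling proteins. Some are secreted and others are held in the membrane, and most are made as inactive precursors that need a cut to become active. TIMPs are small secreted proteins that block the active site. In the spinal cord the balance of both is known to bear on the blood-spinal cord barrier, on the matrix around neurons and on the response of glia to injury.

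The table gives no depth. From the smallest steps between low values, the depth was estimated at between 36.9 and 38.7 M read pairs (M, mega) per library, and the read pairs quoted for a gene below are estimates of the same kind. Markers of glia differed strongly between the genotypes. Of 12 microglia and macrophage markers, 11 were at least 1.5-fold higher in G93A in the vehicle pair and 11 in the SD pair, with a summed level of 102.7 to 116.7 RPKM in the WT libraries and of 761.7 to 781.5 RPKM in the G93A libraries. Of 8 astrocyte markers, 5 and 6 were higher in the same comparisons, with sums of 1426 to 1485 RPKM and of 3857 to 4620 RPKM. Of all gene names in the table, 20.3% were higher in the vehicle pair and 23.2% in the SD pair. None of the markers in either list was at 0. Markers of monocytes, neutrophils and lymphocytes summed to between 0.989 and 2.5 RPKM over 8 genes in every library, and of these Ly6c2, Cd3e and Cd8a were listed at 0 in at least 1 library. Motor neuron markers went the other way, with 4 and 5 of 7 at least 1.5-fold lower in G93A in the vehicle and SD pairs. Of all names, 10.3% and 12.5% were lower in these pairs. Of 9 genes of polyamine metabolism, 0 were past 1.5-fold with SD in either genotype. All 9 had a mean of at least 1 RPKM. Of all names with such a mean, 0.909% were higher and 1.36% lower with SD in WT. In G93A the shares were 1.34% and 1.04%, so that a count of 0 is near the share of all such names. In bulk tissue, more cells of a type and more RNA per cell cannot be told apart, and the part of these markers in the results below was not tested.

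In the WT vehicle library the inhibitors were far more abundant than the proteases. Timp2 had 125.1 RPKM, Timp3 had 32.0 RPKM and Timp4 had 31.9 RPKM, whereas the highest protease, Mmp15, had 11.3 RPKM. Timp1 and Mmp12 were at the bottom, with Timp1 at 0.185 RPKM and Mmp12 listed at 0. Summed over the genes, the TIMPs reached 189.2 RPKM (vehicle) and 186.9 RPKM (SD) in WT, and 262.6 RPKM (vehicle) and 301.0 RPKM (SD) in G93A. The proteases reached 27.7, 27.8, 37.4 and 40.0 RPKM in the same order. Both sums were thus higher in both G93A libraries. The ratio of the TIMP sum to the sum of these proteases stayed between 6.71 and 7.53 in the 4 libraries. This protease sum leaves out 15 other matrix metalloproteinases with values here, which summed to 18.2, 19.5, 18.3 and 18.6 RPKM in the same order. The steady ratio therefore holds for the proteases chosen here, and a ratio over all matrix metalloproteinases was not computed.

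The make-up of both sums differed more than the sums themselves. Timp2 held 66.1% of the TIMP sum in WT vehicle and 54.0% in G93A vehicle, while Timp1 held 0.0980% and 11.7%. Among the proteases, the membrane-type enzymes Mmp14, Mmp15 and Mmp17 together summed to between 22.6 and 23.6 RPKM in all 4 libraries. The secreted enzymes Mmp2, Mmp12 and Mmp19 summed to 4.14 RPKM (vehicle) and 5.12 RPKM (SD) in WT, and to 14.9 RPKM and 17.1 RPKM in G93A. The secreted enzymes therefore carried the higher protease sum of the G93A libraries.

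**Figure D1:**
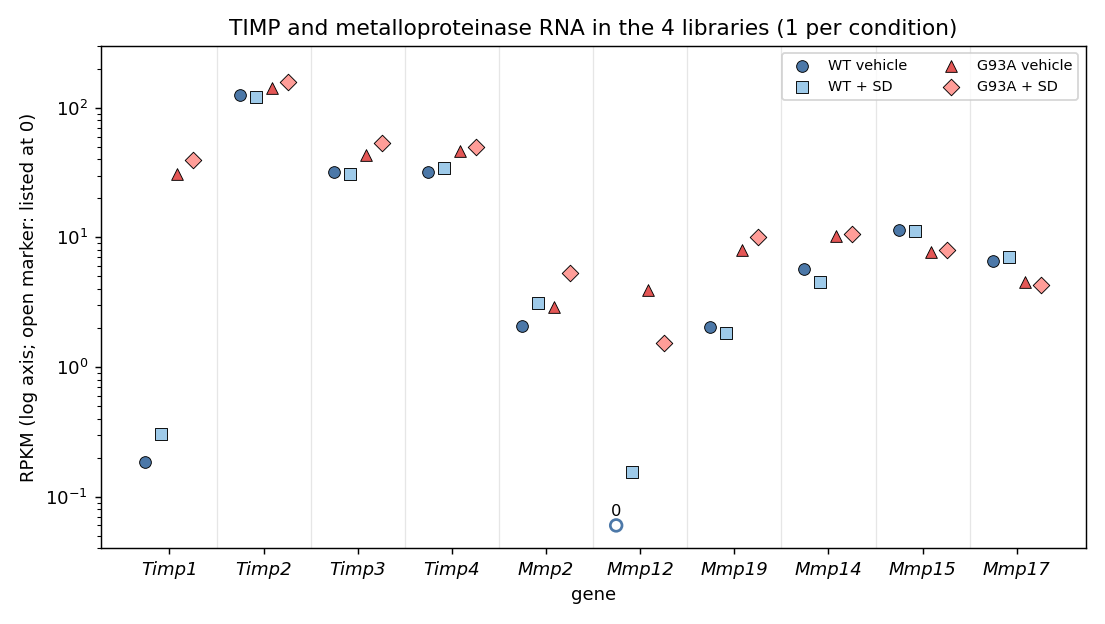
RPKM (log axis) of the 10 genes in the 4 libraries, 1 point per library, with an open marker at the foot of the axis where a gene is listed at 0. The G93A points of Timp1, Mmp12, Mmp19 and Mmp14 lie above both WT points by at least 1.5-fold, and those of Mmp15 and Mmp17 lie below both.

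**Figure D2:**
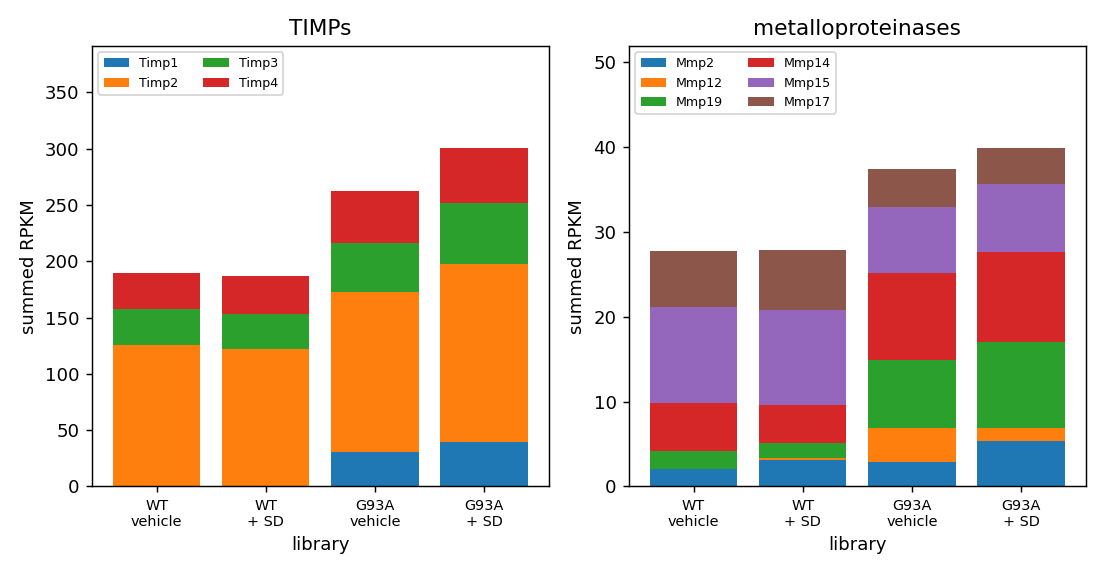
Summed RPKM of the 4 TIMP genes (left) and of the 6 protease genes (right) in each library, stacked by gene. Timp1 is visible only in the G93A libraries, and Mmp19 is 7.39% of the protease sum in WT vehicle and 21.4% in G93A vehicle.

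The first question was how the genotype related to these genes. A gene was counted as higher or lower where the libraries differed at least 1.5-fold, the threshold of the study's own analysis. In G93A vehicle against WT vehicle, 4 of the 10 genes were higher (Timp1, Mmp12, Mmp14 and Mmp19) and 0 were lower. Over all names of the table, 20.3% were higher and 10.3% were lower in this comparison, and among the 12987 names with a mean of at least 1 RPKM 13.5% and 4.68% were. In G93A + SD against WT + SD, which uses the other 2 libraries, 6 were higher (the same 4 with Timp3 and Mmp2) and 1, Mmp17, was lower, against 23.2% and 12.5% of all names and 16.3% and 8.12% of those at 1 RPKM or more. The 4 genes were higher in each G93A library than in each WT library by at least 1.5-fold, a pattern found for 13.1% of all names and 11.0% of those at 1 RPKM or more, and 0 members had the opposite pattern, found for 3.90% and 2.84%. By any amount, both G93A libraries lay above both WT libraries for 7 of the 10 genes and below for 2. Over all names 39.7% and 28.0% did so, and 43.7% and 32.6% of those at 1 RPKM or more, so that lack of overlap was the common case. On the log2 scale with 0.1 RPKM added, the median of the 10 genes was 0.50 in the vehicle pair and 0.78 in the SD pair, beside 0.046 and 0.050 over all names.

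**Figure D3:**
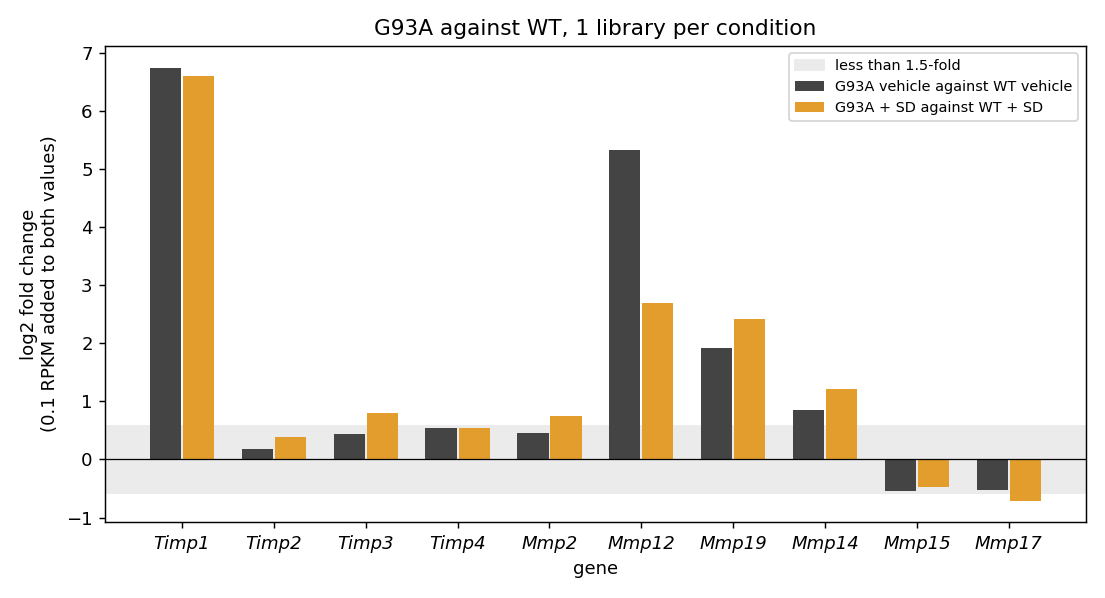
Log2 fold change (0.1 RPKM added to both values) of each gene between the genotypes, G93A over WT, under vehicle and under SD, with 1 library per condition and the range under 1.5-fold shaded. Timp1, at 6.75 and 6.61, stands furthest from 0, and Mmp15 and Mmp17 are the genes below 0.

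Timp1 encodes an inducible inhibitor that is known to be made by reactive astrocytes and other cells after injury. In WT it had 0.185 RPKM under vehicle and 0.304 RPKM under SD, and in G93A 30.6 RPKM and 39.3 RPKM. Its G93A level was 165-fold above WT under vehicle and 129-fold above WT under SD, and it ranked 2 and 6 from the top among the 12987 names (log2 scale with 0.1 RPKM added). It passed the mean of 1 RPKM through its G93A values, so that its rank is a description. Only about 6.03 and 10.3 read pairs stood behind the WT values, against 1027 and 1340 in G93A, so that the fold is imprecise although the gap is wide. With 1 RPKM added, the log2 fold change was 4.74 under vehicle. The order of the levels changed with it, from below every other gene but Mmp12 in the WT libraries to above all 6 proteases in the G93A libraries. Its 2 rows, which are transcripts of equal length, agreed closely, with 30.6 RPKM on both in G93A vehicle. Both are transcripts of the same gene and may count the same reads, so that this is no independent check.

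Timp1 lies on the plus strand of chromosome X (GRCm38, 20870166 to 20874735), inside the span of Syn1, which encodes a synaptic vesicle protein and runs on the opposite strand. Whether reads were counted by strand is not stated. None of the exonic bases of Timp1 (0 of 888) is exonic in Syn1, and Syn1 went the other way between the vehicle libraries, from 90.3 RPKM in WT to 66.6 RPKM in G93A. The 250 bases before its RefSeq start (chrX:20869916-20870165, plus strand, GRCm38.p6) are shown because this gene had the highest fold of the set. They were searched on both strands for TGANTCA, a motif of AP-1 factors, TTCNNNGAA, a motif of STAT factors, and TATAAA, and capitals would mark a match. None of these letters was found in the window.

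Timp1: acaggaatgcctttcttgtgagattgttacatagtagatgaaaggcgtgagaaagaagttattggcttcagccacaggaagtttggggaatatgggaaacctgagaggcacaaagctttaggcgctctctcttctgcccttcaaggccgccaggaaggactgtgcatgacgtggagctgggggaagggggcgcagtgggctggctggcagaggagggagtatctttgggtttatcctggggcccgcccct

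Timp2 (chromosome 11, 118301069 to 118355740, minus strand) encodes an inhibitor that also takes part in the activation of the Mmp2 precursor, by linking it to Mmp14 at the cell surface. Its level was 125.1 RPKM (vehicle) and 121.5 RPKM (SD) in WT, and 141.8 RPKM and 158.4 RPKM in G93A. Both G93A libraries were above both WT libraries, by 1.13-fold under vehicle and 1.303-fold under SD, which is under the threshold. It was the most abundant gene of the set in every library and lay in percentile 98.9 of all names by mean level.

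Timp3 encodes an inhibitor that stays bound to the matrix and that also blocks ADAM17 and several ADAMTS enzymes. The WT values were 32.0 RPKM (vehicle) and 30.9 RPKM (SD), and the G93A values were 43.5 RPKM and 53.8 RPKM. Under vehicle the G93A level was 1.36-fold above WT, and under SD 1.74-fold. Timp4, whose product is known from brain and heart, had 31.9, 34.2, 46.7 and 49.6 RPKM in the same order, with folds of 1.46 and 1.45. Timp3 and Timp4 were close to each other in all 4 libraries, and their order turned between them.

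Timp3 (chromosome 10, 86300372 to 86349506, plus strand) and Timp4 (chromosome 6, 115241892 to 115252205, minus strand) also lie inside synapsin genes of the opposite strand, Syn3 and Syn2. For Timp4, 90 of 5894 exonic bases are also exonic in Syn2. In Timp3 the overlap with Syn3 is larger, at 1733 of 8144 exonic bases, and reads from there cannot be assigned to either gene without strand. The row measured for Timp3 is a transcript of 4722 bases. Of its 4670 stretches of 53 bases, 1687 (36.1%) are shared with another gene, and 6 are shared away from this locus. The deposited Syn3 value was 6.25 RPKM in WT and 3.91 RPKM in G93A under vehicle, and Syn2 had 45.6 and 35.7 RPKM, both opposite in direction to the TIMP gene inside them.

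Mmp12 encodes macrophage elastase, which cuts elastin and other matrix proteins and is made mainly by macrophages and microglia. It was listed at 0 in WT vehicle, at 0.154 RPKM in WT + SD, and at 3.94 RPKM (vehicle) and 1.55 RPKM (SD) in G93A. Both G93A values were well above both WT values, with a 10.02-fold difference under SD, and no fold is given against the value of 0. The estimated read pairs were 21.3 in WT + SD, and in G93A 540.4 under vehicle and 215.5 under SD. The gene spans chromosome 9, 7344381 to 7369499 (plus strand), and 157 of its 7237 exonic bases are shared with Mmp1b of the opposite strand, which has no value here.

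Promoter windows of the same length were matched in RefSeq for 7 of the 10 genes, and Mmp12 was the single gene among these with a match to one of the motifs. The window is shown for that reason, with the match TGAGTCA in capitals. It spans chr9:7347124-7347373 (plus strand, GRCm38.p6), and the match covers positions -44 to -38, where -1 is the base before the start. The other window of Mmp12 held no match. TGANTCA was found in 6.75% of the 32851 windows of this length, TTCNNNGAA in 7.02% and TATAAA in 12.4%, so that 1 gene of 7 with a match is a description and no more. No windows were matched for Mmp2, Mmp17 and Mmp19.

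Mmp12: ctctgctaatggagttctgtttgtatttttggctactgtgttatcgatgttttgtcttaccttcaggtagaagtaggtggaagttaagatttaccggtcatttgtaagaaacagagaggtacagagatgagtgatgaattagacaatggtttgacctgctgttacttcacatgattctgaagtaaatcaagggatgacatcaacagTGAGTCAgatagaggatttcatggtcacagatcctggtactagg

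Mmp19 encodes a secreted protease that cuts basement membrane proteins. It stood at 2.05 RPKM (vehicle) and 1.83 RPKM (SD) in WT, and at 8.02 RPKM and 10.2 RPKM in G93A. The G93A level was 3.91-fold above WT under vehicle and 5.56-fold under SD, with 212.2 and 196.4 estimated read pairs in the WT libraries. Its 2 rows gave 7.93 and 8.12 RPKM in G93A vehicle. The gene spans chromosome 10, 128790910 to 128800824 (plus strand). Of its 3533 exonic bases, 789 are shared with Tmem198b and 212 with Gm47093 on the opposite strand, and neither of these has a value here, so that reads of Mmp19 cannot be told apart from theirs in these stretches.

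Mmp2 (chromosome 8, 92827291 to 92853420, plus strand) encodes gelatinase A, which cuts denatured collagen and type IV collagen of basement membranes. The WT levels were 2.09 RPKM (vehicle) and 3.14 RPKM (SD), and the G93A levels were 2.89 RPKM and 5.36 RPKM. It was the single member whose values overlapped between the genotypes, since WT + SD lay above G93A vehicle. Within each treatment the G93A library was higher, by 1.38-fold under vehicle and 1.71-fold under SD.

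Mmp14 (MT1-MMP; chromosome 14, 54431612 to 54445364, plus strand) is a membrane-bound protease that activates the Mmp2 precursor and cuts fibrillar collagen. WT had 5.68 RPKM under vehicle and 4.51 RPKM under SD, and G93A had 10.3 RPKM and 10.6 RPKM. The G93A level was 1.81-fold above WT under vehicle and 2.35-fold under SD. The other 2 membrane-type enzymes went the other way. Mmp15 (MT2-MMP), the most abundant protease of the set in the WT libraries, had 11.3, 11.2, 7.75 and 8.03 RPKM in the same order of libraries. Mmp17 (MT4-MMP), which is held by a lipid anchor and has a narrow range of substrates, had 6.59, 7.02, 4.53 and 4.26 RPKM.

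Mmp15 lies on chromosome 8 (95352268 to 95375080) and Mmp17 on chromosome 5 (129584169 to 129611099), both on the plus strand. Both genes had lower values in both G93A libraries, as 28.0% of all names did. Mmp15 was 1.46-fold lower under vehicle and 1.39-fold lower under SD, and Mmp17 was 1.46-fold and 1.65-fold lower. When the libraries were scaled by median ratios, both passed 1.5-fold under vehicle, with log2 fold changes of -0.61 and -0.61. The order of the proteases turned with these shifts, since Mmp15 ranked first among them in both WT libraries and Mmp14 ranked first in both G93A libraries. Markers of other cells moved in the same direction as Mmp15 and Mmp17. The summed level of 8 oligodendrocyte markers was 8969 RPKM (vehicle) and 9240 RPKM (SD) in WT, and 7299 RPKM and 6684 RPKM in G93A. That of 3 pan-neuronal markers was 1513 and 1511 RPKM against 972.0 and 827.2 RPKM, and the part of either cell type was not tested.

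The second question was how SD related to the same genes. In WT + SD against WT vehicle, 3 of the 10 genes were higher (Timp1, Mmp2 and Mmp12) and 0 were lower, while 7.18% of all names were higher and 8.55% were lower (0.909% and 1.36% of those with a mean of at least 1 RPKM). All 3 rest on low values or a small margin. Timp1 went from 0.185 to 0.304 RPKM, Mmp12 from 0 to 0.154 RPKM and Mmp2, at 1.503-fold, from 2.09 to 3.14 RPKM. With 0.1 RPKM added to both values, Mmp12 alone of the 10 genes passed, and with 1 RPKM added 0 did.

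In G93A + SD against G93A vehicle, Mmp2 was higher and Mmp12 was lower, and the other 8 genes were within 1.5-fold. Over all names 8.71% were higher and 7.31% were lower, and among names with a mean of at least 1 RPKM 1.34% and 1.04% were. Mmp2 went from 2.89 to 5.36 RPKM, a 1.86-fold difference that ranked 56 from the top of the 12987 names, on about 337.7 and 637.7 read pairs. Mmp12 went from 3.94 to 1.55 RPKM and was 2.55-fold lower, ranking 24 from the bottom. Mmp12, too, reached a mean of 1 RPKM through its G93A values. At a threshold of 2-fold, Mmp12 passed and Mmp2 did not.

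**Figure D4:**
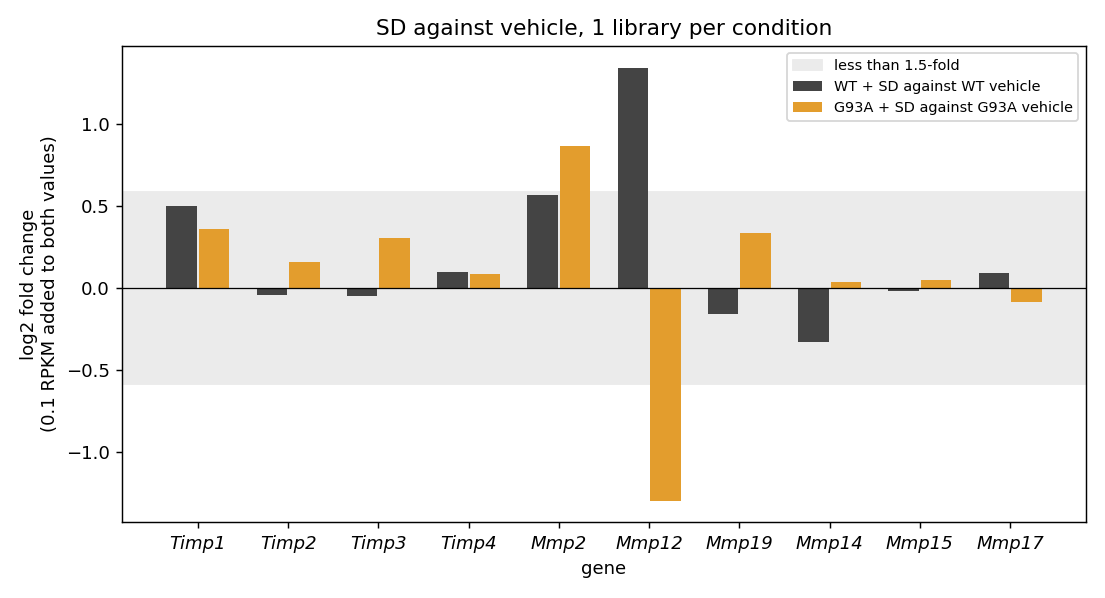
Log2 fold change (0.1 RPKM added to both values) with SD against vehicle in WT and in G93A, 1 library per condition, with the range under 1.5-fold shaded. Mmp12 went opposite ways, above 0 in WT at 1.35 and below 0 in G93A, while Mmp2 was above 0 in both, at 0.57 and 0.87.

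Mmp2 was higher with SD in both genotypes, and the difference in log2 fold change between them was 0.30, which was not tested. Markers of fibroblasts and mural cells, the first of which are known to express Mmp2, summed to 37.6 RPKM (vehicle) and 34.6 RPKM (SD) in WT, and to 41.1 RPKM and 43.6 RPKM in G93A. Rgs5, a pericyte gene, was the largest single part of this sum in each library, with 22.7 and 19.5 RPKM in WT and 22.4 and 20.5 RPKM in G93A. The fibroblast gene Dcn, a matrix proteoglycan, had 5.52 and 6.98 RPKM in WT and 5.42 and 9.85 RPKM in G93A, which is 1.26-fold and 1.82-fold higher with SD. Lum, a related proteoglycan, had 0.546 and 0.464 RPKM in WT and 0.450 and 0.835 RPKM in G93A, which is 1.86-fold higher with SD in G93A. The collagen genes of the list did not pass 1.5-fold with SD in either genotype. Col1a2 had 3.28 and 3.002 RPKM in WT and 5.14 and 4.98 RPKM in G93A, Col1a1 had 0.656 and 0.516 RPKM in WT and 1.62 and 1.87 RPKM in G93A, and Col3a1 had 0.404 and 0.445 RPKM in WT and 0.425 and 0.480 RPKM in G93A. The part of these cells was not tested. Markers of Schwann cells, the myelinating cells of nerve roots, summed to 0.535, 1.27, 1.77 and 3.08 RPKM over 4 genes. None of the 4 had a mean of 1 RPKM. This sum was higher with SD in both genotypes, as Mmp2 was, and its part was not tested.

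Beside the lower Mmp12 with SD in G93A, the microglia and macrophage markers summed to 781.5 RPKM in G93A vehicle and 761.7 RPKM in G93A + SD, and 0 of the 12 were at least 1.5-fold lower or higher. Of the 8 markers of monocytes, neutrophils and lymphocytes, 4 were at least 1.5-fold lower and 3 higher, beside 7.31% and 8.71% of all names. None of the 8 had a mean of 1 RPKM. Their sum was 2.5 RPKM in G93A vehicle and 1.09 RPKM in G93A + SD, mainly through the neutrophil genes S100a8, at 0.938 and 0.364 RPKM, and S100a9, at 1.275 and 0.342 RPKM. Their part was not tested. Cd68, a lysosomal marker of these cells, had 85.2 and 82.6 RPKM, and Trem2, a microglial receptor, had 65.1 and 43.9 RPKM. Over the list the median log2 difference was 0.097 with 0.1 RPKM added, above 0, and Ptprc, a marker of all leukocytes, was 1.20-fold and P2ry12, a marker of resting microglia, 1.17-fold above vehicle. The 4 TIMP genes were all above G93A vehicle in the G93A + SD library, by between 1.06-fold (Timp4) and 1.28-fold (Timp1), which is under the threshold. The membrane-type enzymes were close between these libraries, with Mmp14 at 1.03-fold, Mmp15 at 1.04-fold and Mmp17 1.06-fold lower.

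**Figure D5:**
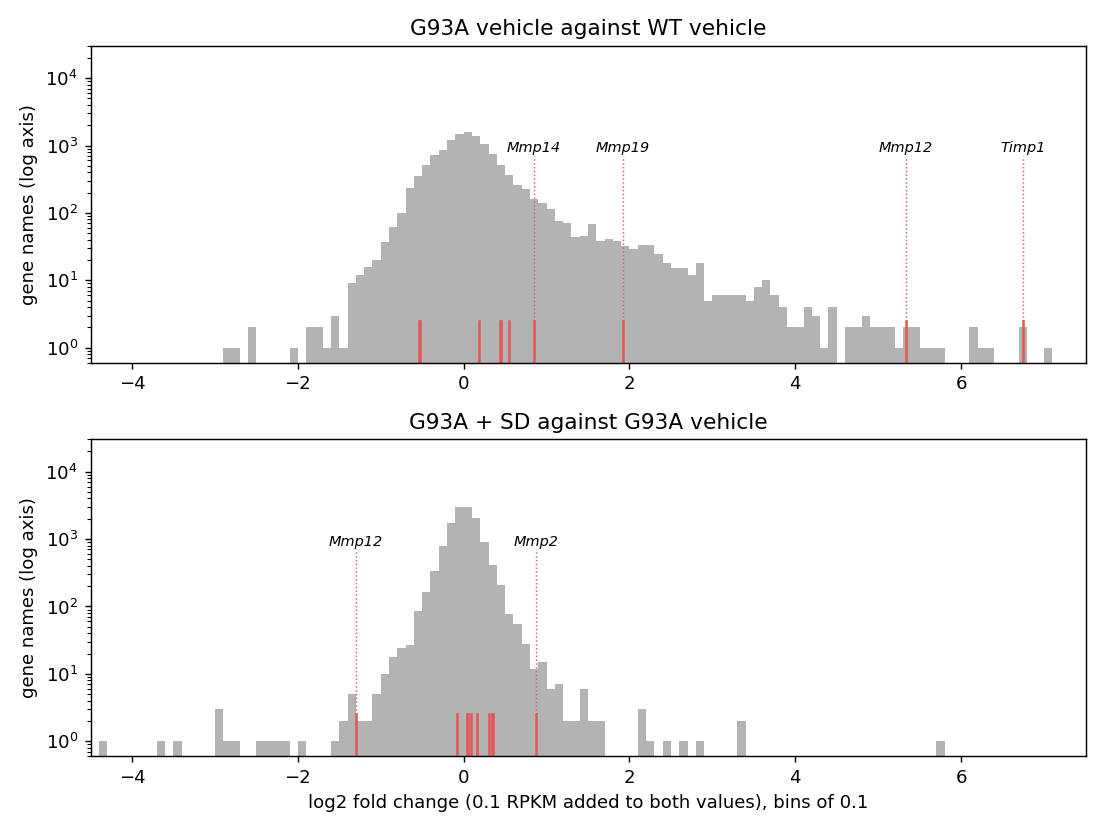
Number of gene names with a mean of at least 1 RPKM (log axis) by log2 fold change (0.1 RPKM added to both values) in G93A vehicle against WT vehicle (top) and in G93A + SD against G93A vehicle (bottom), with the 10 genes as red ticks. The genes past 1.5-fold are named: Timp1 and Mmp12 lie in the far upper tail for genotype, and Mmp12 and Mmp2 lie outside the main body for SD.

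For Timp1 and Mmp12, the names with the most similar pattern were sought among the 12987 names, by the distance between log2 profiles over the 4 libraries after each was centred on its mean. For Timp1 they were Lyz2, Itgax, Tgm1, Gpnmb and Clec7a, at distances of 0.57 to 0.85. Itgax, for example, had 0.0925 RPKM (vehicle) and 0.0923 RPKM (SD) in WT, and 13.2 RPKM and 15.5 RPKM in G93A. For Mmp12 the nearest were Ube2c, Cd48, Lgals3, Pbk and Ly9, at larger distances of 0.99 to 1.24. None of these 5 showed the lower level with SD in G93A to the extent of Mmp12, and the largest such difference in relative terms was that of Ly9, from 3.66 to 2.998 RPKM.

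The rest of the protease system was read from lists of genes. Of 15 other matrix metalloproteinases in the table, 8 were at least 1.5-fold higher and 2 lower in G93A under vehicle, beside 20.3% and 10.3% of all names, but only 5 of the 15 had a mean of at least 1 RPKM. Mmp9, gelatinase B, which in the spinal cord is known as a marker of fast motor neurons, had 2.61 RPKM (vehicle) and 2.26 RPKM (SD) in WT, and 1.298 RPKM and 0.667 RPKM in G93A. It was 2.01-fold lower under vehicle and 3.39-fold lower under SD, opposite to Mmp2, the other gelatinase. Mmp11, a secreted enzyme activated inside the cell by furin, had 0.677, 0.832, 1.80 and 2.13 RPKM in the same order. Mmp24 and Mmp16, both membrane-type enzymes, had 10.4 and 3.19 RPKM in WT vehicle and were within 1.5-fold in all 4 comparisons. Mmp3, stromelysin 1, was listed at 0 in WT vehicle and at 0.272 RPKM in G93A vehicle.

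Of 10 genes for proteases that activate others and for proteins that work with them, 5 were higher in G93A and 0 lower under vehicle, beside 20.3% and 10.3% of all names. Under SD, 7 were higher and 0 lower, beside 23.2% and 12.5%. Plau, the urokinase plasminogen activator, had 0.937 RPKM (vehicle) and 0.797 RPKM (SD) in WT, and 12.5 RPKM and 15.2 RPKM in G93A. Its receptor Plaur had 0.124, 0.222, 2.67 and 3.61 RPKM, and Plat, the tissue plasminogen activator, had 18.8, 19.3, 61.3 and 87.7 RPKM. Of 8 inhibitors outside the TIMP family, 3 were higher and 2 lower under vehicle, beside the same 20.3% and 10.3%. A2m, a broad trap for proteases, was at 18.2 RPKM in WT and 104.3 RPKM in G93A under vehicle. Spock2, a matrix proteoglycan, was 1.67-fold lower in G93A vehicle.

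ADAM and ADAMTS proteases, some of which Timp3 blocks, were read against the same shares. Among 12 ADAM genes, 3 were higher and 2 lower under vehicle, and among 19 ADAMTS genes 5 were higher and 6 lower. Over all names 20.3% were higher and 10.3% lower, so that the higher counts of both lists are near that share and the lower count of the ADAMTS list is above it, and of the 19 ADAMTS genes 9 had a mean of at least 1 RPKM. Adam17, which sheds TNF from the cell surface, was at 7.45 RPKM in WT and 11.8 RPKM in G93A under vehicle, and Adam8, a gene of activated myeloid cells, had 0.372 and 1.98 RPKM. Adam23, a neuronal family member without protease activity, had 49.6 and 29.7 RPKM. Adamts1 and Adamts5, which cut proteoglycans, were 3.07-fold and 2.47-fold higher in G93A vehicle. Adamts2 and Adamts6 went the other way and were 1.503-fold and 1.69-fold lower. Of 24 genes for matrix proteins that these enzymes can act on, 9 were higher and 3 lower under vehicle, and 11 and 6 under SD, where 23.2% and 12.5% of all names were. Spp1 (osteopontin) was 5.07-fold and Sparc 1.78-fold higher in G93A vehicle, while Bcan, the brevican core protein of nets around neurons, was 1.46-fold lower under vehicle and 1.54-fold lower under SD.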

How the data were processed

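Lumbar spinal cord RNA was measured in 4 libraries, 1 per condition, whose groups were taken from the sample labels. Per the methods, polyA RNA was read in 53 bases, with STAR for alignment (GRCm38) and HTSeq for counting against Ensembl genes. The authors deposited 1 table of RefSeq transcripts without a named unit, and its values were taken as RPKM, since the products of value and transcript length added up to similar totals over the libraries. No per-sample column was left out. The deposited ratio columns hold the authors' own comparisons and were not used.

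The deposited RPKM values were averaged over a name's rows without further scaling and called at 1.5-fold with no pseudocount and no filter. Where just 1 of the libraries compared was at 0, the name was called. Log2 values with a pseudocount used 0.1 RPKM. Depth was estimated from GENCODE M21 lengths, found for 97.0% of rows, as whole multiples (within 0.05 of a step) of the value of 1 aligned base, which held for 63.3% to 71.1% of the 30 to 38 low values of short rows used per library. A read pair was taken as 216 bases, the commonest number behind low values (682 of 4698 lay within 1 base of it), although the methods name shorter reads, so that read pairs are rough and no interval was derived. Promoter windows came from RefSeq on GRCm38.p6 and gene positions from GENCODE M21 on GRCm38.

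The members, gene lists and comparisons were chosen with earlier results of these data known. All 10 members are named in full, and genes of the lists were named where they passed 1.5-fold in either genotype comparison with a mean of at least 1 RPKM, at most 6 per list by mean level. The synapsin genes were named as hosts of TIMP genes, and the 5 nearest profiles for Timp1 and Mmp12. Mmp3, Mmp16, Mmp24, the fibroblast, mural, microglial and neutrophil markers, the other genes that overlap a member and the markers at 0 were named outside that rule, after their values were seen. Protein motifs were not searched. The alternatives were median-ratio scaling, pseudocounts of 0.1 and 1 RPKM, a mean of at least 1 RPKM, a 2-fold threshold, any row of a name and the sum of its rows. Restriction to names above 0 in all 4 libraries was added after seeing the data. Python 3.11.15 was used with pandas 2.3.3, numpy 2.4.6 and, for plots, matplotlib 3.10.9. The calling was tested on simulated data.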

Additional observations from a re-analysis of the deposited data

Results flagged for a closer look

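Mmp12 went opposite ways with SD in the genotypes. It went from 0 to 0.154 RPKM in WT and from 3.94 to 1.55 RPKM in G93A, a difference of -2.40 RPKM. The difference between the genotypes was not tested, and each direction rests on 1 library per condition. Among the 12987 names with a mean of at least 1 RPKM, 11 (0.0847%) were at least 1.5-fold higher with SD in WT and at least 1.5-fold lower with SD in G93A. No group held enough libraries to look for outlying samples.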

How the results depend on the processing

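Of the 80 repeats of a count of members, 72 stayed within 1.5 times the count given. This includes repeats that could not move. All 10 members pass a mean of 1 RPKM, and the sum of a gene's rows gives the same fold as their mean. Median-ratio scaling gave 2 lower members in G93A vehicle (Mmp15 and Mmp17) in place of 0, and 1 member with both G93A libraries at least 1.5-fold below both WT libraries in place of 0, because both genes lie just inside 1.5-fold. With the 2-fold threshold, 0 members were lower in G93A + SD than in WT + SD, 0 were higher with SD in G93A and 1 was higher with SD in WT. The last count was 1 with a pseudocount of 0.1 RPKM and 0 with 1 RPKM, because Timp1 and Mmp12 are near 0 in WT and Mmp2 lies at the threshold. With names above 0 in all 4 libraries, 0 members were lower with SD in G93A, since Mmp12 was left out. The count of 4 members higher under vehicle did not move by more than 1.5 times under the alternatives run. The log2 fold changes of single members changed sign in 0 cases. Pseudocounts, the 2-fold threshold and the sum of rows cannot change a sign, so that only median-ratio scaling could have done so. The scaling factors lay between 0.977 and 1.03. No paired analysis was possible because each condition has 1 library. Depth limits the WT values of Timp1 and Mmp12, and the spread between animals is unknown for every gene.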

Other observations

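Adamts4, an aggrecanase that Timp3 is known to block, had its largest differences with SD and not with genotype. Under vehicle it was at 10.9 RPKM in WT and 16.98 RPKM in G93A, and under SD at 3.23 and 3.29 RPKM. The SD libraries were 3.38-fold lower in WT and 5.17-fold lower in G93A, and they were nearly equal to each other across the genotypes. Of the 12987 names with a mean of at least 1 RPKM, 38 (0.293%) were at least 1.5-fold lower with SD in both genotypes. None of the 10 TIMP and metalloproteinase genes was among them, and Mmp2 was the 1 member at least 1.5-fold higher with SD in both, among 28 such names. Adamts4 was described here after its values had been seen, and the libraries were not replicated.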
